A study of Homo sapiens with 12 samples.

Results

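The ERBB receptors and the EGF-like ligands that bind them were followed by every probe set that the annotation of the arrays gives to EGFR, ERBB2, ERBB3, ERBB4, EREG, AREG, HBEGF, TGFA, BTC and NRG1. Of these 10 genes, 9 had a probe set, and AREG is not analysed here. They had 26 of the 19033 probe sets with 1 gene symbol in the 8-array table and 38 of the 41028 in the 4-array table, of which 12 were in the 4-array table only. The arrays came from 4 groups of human prostate cancer cells. DU145-DR cells were the docetaxel-resistant derivative of DU145 and had been grown under docetaxel, a taxane that stabilises microtubules, while parental DU145 cells had been grown without it. 22Rv1-DR cells, also resistant and grown under docetaxel, were compared with parental 22Rv1 cells grown without it. All cells were kept in RPMI medium with serum, and resistance cannot be told apart from the presence of the drug. Each resistant group is 1 derivative of its line. The labels do not tell whether replicates are separate cultures, so a p-value measures only the spread between these arrays, which may be technical.

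EGFR, ERBB2, ERBB3 and ERBB4 are receptor tyrosine kinases of the cell surface that signal as pairs. EREG (epiregulin), AREG (amphiregulin), HBEGF (heparin-binding EGF-like growth factor), TGFA (transforming growth factor alpha) and BTC (betacellulin) are made as membrane-anchored precursors, are released by ADAM proteases and bind EGFR, some of them also ERBB4, while NRG1 (neuregulin) binds ERBB3 and ERBB4. ERBB2 has no known ligand and serves as a partner, and ERBB3 has a weak kinase and recruits PI3 kinase when paired. In prostate epithelium these receptors drive growth through the RAS, MAP kinase and AKT routes.

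Replicates 1 and 2 of each group were in the 8-array table and replicate 3 of each group, on a larger array type, was in the 4-array table. Values were probe-set intensities on a linear scale. In the 8-array table the DU145-DR and DU145 arrays had 5th percentiles of 35.8 to 38.6 and medians of 184 to 205, and the 22Rv1-DR and 22Rv1 arrays had 5th percentiles of 11.5 to 12.3 and medians of 59.3 to 69.1, so levels in that table were set side by side between lines only as the percentile of a probe set within its own array. Of 4 epithelial marker genes, 3 in DU145-DR and 4 in DU145, 22Rv1-DR and 22Rv1 were above the median of every array. The gene below it was CDH1 (E-cadherin), at percentiles of 0.00366 to 8.65 in DU145-DR and 91.3 to 98.2 in DU145. Of 4 genes of the androgen receptor axis of prostate luminal cells, KLK2 and KLK3 were above the median of every array in 22Rv1-DR and 22Rv1. TMPRSS2 and FOLH1 were not, and none of the 4 was above the median of every array in DU145-DR or DU145. None of the fibroblast, leukocyte and endothelial markers was above the median of every array of any group.

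Changes are resistant minus parental on the scale log2(intensity + 16), which understates the change of a low value, and ± gives limma's standard error with 2 arrays in each group. A probe set was tested when its mean passed an intensity of 74.0 in at least 1 group. This held for 18 of the 26 member probe sets, and the other 8 were too dim to be tested. A probe set was called when its p, adjusted by Benjamini and Hochberg's method over the 14793 tested probe sets, was under 0.05. The third pair, replicate 3 of each group, gave a change with no test. Of the 18 member probe sets, 2 rose and 5 fell in DU145-DR against a background of 9.00% of all probe sets called in either direction (4.52% higher, 4.48% lower), and the members' median change was -0.10 against -0.01 over all probe sets. In 22Rv1-DR, 1 rose and 1 fell against a background of 4.09% (2.20% higher, 1.89% lower), and the members' median was 0.02 against 0.01. Replicate numbers paired the arrays within a line. With a term for each line and number, 9 of 18 members were called in DU145-DR and 4 of 18 in 22Rv1-DR, against backgrounds of 33.2% and 19.7%.

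ERBB3 fell in both resistant lines. Its tested probe set, 202454_s_at, read 56.5 and 63.1 on the DU145-DR arrays against 474 and 343 on the DU145 arrays of replicates 1 and 2, and 13.4 against 209 on the third pair. In 22Rv1-DR it read 223 and 190.0 against 657 and 491 in 22Rv1, and 261 against 776 on the third pair. Every resistant array was below every parental array of its line and table. Over replicates 1 and 2 alone, the groups did not overlap, in either direction, for 40.9% of all tested probe sets in the DU145 comparison. In the 22Rv1 comparison this held for 49.7%. The change was -2.47 ± 0.23 in DU145-DR (95% interval -3.00 to -1.93, limma adjusted p = 0.000602) and -1.40 ± 0.23 in 22Rv1-DR (95% interval -1.93 to -0.86, limma adjusted p = 0.0126). The third pair gave -2.94 and -1.51.

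In its place among all probe sets of an array, ERBB3 lay at percentiles of 17.3, 25.5 and 14.1 in DU145-DR, against 66.6, 59.6 and 76.9 in DU145. It was at 67.8, 67.1 and 79.3 in 22Rv1-DR, against 85.4, 81.8 and 90.9 in 22Rv1. ERBB3 was thus near the low end of the DU145-DR arrays and above the median of all 22Rv1-DR arrays. A probe set on the larger array type only, 226213_at, read 39.7 in DU145-DR against 771 in DU145, a change of -3.82. The same probe set read 898 in 22Rv1-DR against 2288 in 22Rv1, a change of -1.33. The other 3 probe sets of ERBB3 were dim, from 12.6 to 76.1 on all arrays that hold them, and their third-pair changes lay between -0.25 and 0.14.

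The fall of ERBB3 was 1.07 ± 0.33 larger in DU145-DR than in 22Rv1-DR on the log2 scale, which did not pass the threshold (limma adjusted p = 0.105) and passed it with the replicate block (limma adjusted p = 0.0210). The call in DU145-DR held under all 19 alternatives. The call in 22Rv1-DR was lost without 22Rv1-DR replicate 1 (limma adjusted p = 0.0701), without 22Rv1-DR replicate 2 (limma adjusted p = 0.121) and without 22Rv1 replicate 1 (limma adjusted p = 0.140), and with all 12 arrays in a fit with the table as a block (limma adjusted p = 0.0759).

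ERBB4, the receptor of the neuregulins that also binds HBEGF, BTC and EREG, rose in 22Rv1-DR. Its probe set 214053_at read 187 and 159.8 in 22Rv1-DR against 62.2 and 57.3 in 22Rv1, and 114 against 34.5 on the third pair. The lowest resistant array was above the highest parental array in each table. Over replicates 1 and 2, groups did not overlap, in either direction, for 49.7% of all tested probe sets in the 22Rv1 comparison. The change was 1.32 ± 0.18 (95% interval 0.90 to 1.74, limma adjusted p = 0.00490), and the third pair gave 1.36. However, 214053_at had passed the intensity filter only through its 22Rv1-DR values, the group in which it was higher. This limits the call here and the test of the difference between the lines. With no filter ERBB4 was called in both. A second probe set, 233498_at, on the larger array type only, read 87.4 in 22Rv1-DR against 42.2 in 22Rv1. The remaining 2 probe sets, 206794_at and 233494_at, did not move with them and were dim in both groups, from 18.3 to 23.8 and from 12.5 to 14.1.

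In DU145-DR the ERBB4 probe set 214053_at read 47.5 and 40.2 against 41.1 and 42.5 in DU145, and 14.9 against 13.2 on the third pair. These values lie at percentiles of 6.50 to 19.5, near the floor of their arrays, and the change of 0.05 ± 0.18 did not pass the threshold (95% interval -0.37 to 0.47, limma adjusted p = 0.982). The 22Rv1 change exceeded the DU145 change by 1.27 ± 0.26 (limma adjusted p = 0.0261). That difference was lost under 7 of 17 alternatives, with all 12 arrays (limma adjusted p = 0.292) and without any 1 of the 22Rv1-DR, 22Rv1 or DU145 arrays (0.0639 to 0.144). The rise in 22Rv1-DR was lost without 22Rv1-DR replicate 1 (limma adjusted p = 0.0706), without 22Rv1 replicate 1 (limma adjusted p = 0.0545) and without 22Rv1 replicate 2 (limma adjusted p = 0.0731).

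EGFR, the receptor of most of these ligands, had 6 probe sets in the 8-array table, and they did not move alike. In DU145-DR, 3 of them fell and 3 did not pass the threshold. The one brightest in DU145 cells, 201983_s_at, read 765 and 439.6 in DU145-DR against 1379.6 and 1379.6 in DU145, and 1389 against 1184 on the third pair. It was thus lower on both resistant arrays of the 8-array table and not on that of the 4-array table. The change of -1.23 ± 0.33 missed the threshold (limma adjusted p = 0.0553) and passed it with the replicate block (limma adjusted p = 0.00770), while the third pair gave 0.23.

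The EGFR probe set 201984_s_at showed the same split between the tables. It read 455 and 331 in DU145-DR against 699 and 849 in DU145, and 405 against 274 on the third pair. It fell by 0.96 ± 0.22 (95% interval -1.47 to -0.45, limma adjusted p = 0.0330), and the third pair gave 0.53. On the larger array type, 224999_at read 1872 in both DU145-DR and DU145.

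A pair of EGFR probe sets named as prone to cross-hybridization was lower in DU145-DR in both tables. 210984_x_at read 104 and 70.0 in DU145-DR against 194 and 202 in DU145, and 54.2 against 124 on the third pair. It fell by 1.08 ± 0.21 (limma adjusted p = 0.0164), with -1.001 on the third pair. 211607_x_at read 78.8 and 74.5 in DU145-DR against 124 and 197 in DU145, and 37.5 against 84.4 on the third pair. It fell by 0.90 ± 0.23 (limma adjusted p = 0.0457), with -0.91 on the third pair. 211550_at and 211551_at were dim, from 22.9 to 129 over the DU145-DR and DU145 arrays, with changes of -0.13 and -0.20 that did not pass the threshold.

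**Figure D1:**
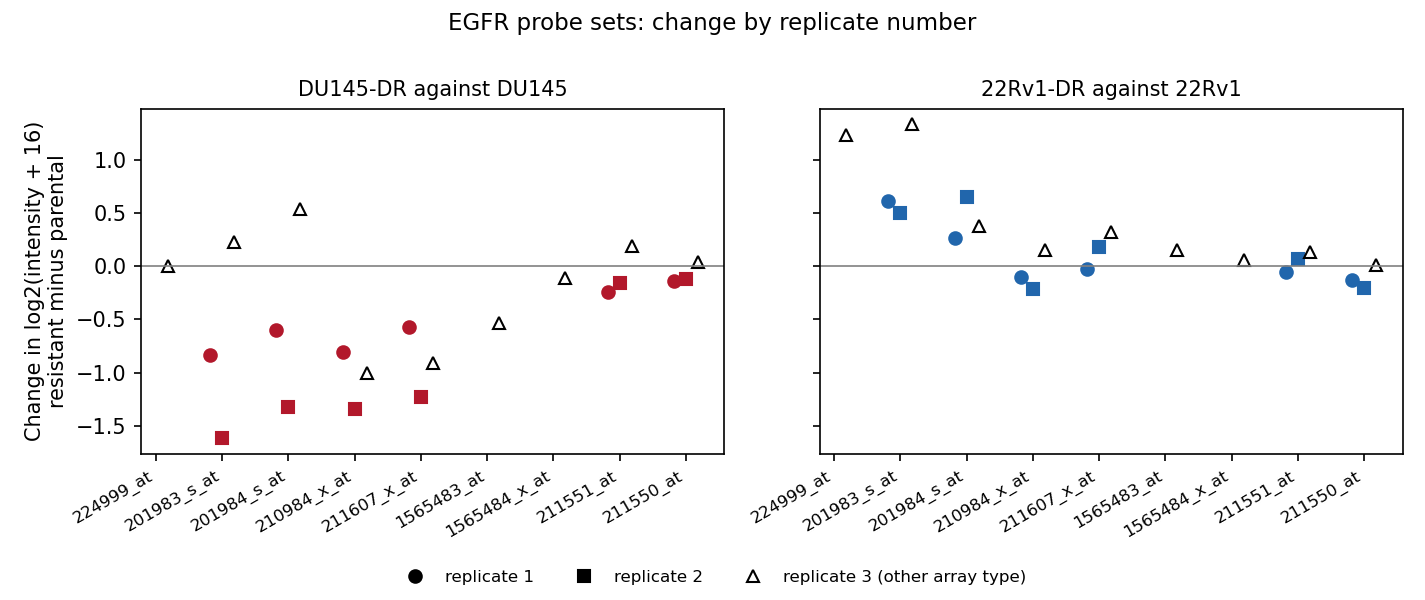
Change of each EGFR probe set between the resistant and the parental array of the same replicate number, on the scale log2(intensity + 16), in DU145-DR against DU145 and in 22Rv1-DR against 22Rv1; circles are replicate 1, squares replicate 2 and open triangles replicate 3 on the larger array type. In DU145-DR the probe sets 201983_s_at and 201984_s_at are below 0 in pairs 1 and 2 and above 0 in pair 3, and 210984_x_at and 211607_x_at are below 0 in all 3 pairs.

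The fall of 201984_s_at was lost with all 12 arrays in a fit with the table as a block (limma adjusted p = 0.805) and with only the 4 arrays compared (0.165). It was also lost without DU145-DR replicate 2 (limma adjusted p = 0.0837), without DU145 replicate 1 (0.0789) or 2 (0.153), and without any of the 22Rv1-DR arrays (0.0646) or 22Rv1 arrays (0.0687). The call of 210984_x_at was lost without DU145 replicate 1 (limma adjusted p = 0.0725) or 2 (0.0794), with all 12 arrays (0.134) and with only 4 (0.123). That of 211607_x_at was lost under 14 of 17 alternatives. These were each of the 8 arrays left out except DU145 replicate 1 (0.0811 to 0.185), quantile normalization (0.0795), a shift to 1 median (0.0846), pseudocounts of 1 (0.0502) and 64 (0.0547), no filter (0.0518), all 12 arrays (0.245) and only 4 (0.205).

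In 22Rv1-DR no EGFR probe set passed the threshold. 201983_s_at read 69.1 and 38.1 in 22Rv1-DR against 39.7 and 22.2 in 22Rv1, and 104 against 31.6 on the third pair. The groups overlapped in the 8-array table, where replicate 1 was higher than replicate 2 in both groups, and the change was 0.56 ± 0.33 (95% interval -0.20 to 1.31, limma adjusted p = 0.563), with 1.33 on the third pair. 201984_s_at read 119 and 137 in 22Rv1-DR against 96.3 and 81.6 in 22Rv1, a change of 0.46 ± 0.22 (limma adjusted p = 0.420), with 0.37 on the third pair. 224999_at on the larger array type read 307 in 22Rv1-DR against 121 in 22Rv1, a change of 1.23. The changes of the lines differed for 201984_s_at by 1.42 ± 0.31 (limma adjusted p = 0.0361), which was lost under 7 of 18 alternatives, with all 12 arrays (0.757) and without any 1 of the 22Rv1-DR, 22Rv1 or DU145 arrays (0.0623 to 0.164). For 201983_s_at, 210984_x_at and 211607_x_at they differed by 1.78, 0.92 and 0.98, past the threshold only with the replicate block (limma adjusted p = 0.00868, 0.0264 and 0.0356, against 0.0616, 0.117 and 0.128 without it).

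ERBB2, the partner receptor with no ligand of its own, was lower on every resistant array of both lines and did not pass the threshold. Its probe set 216836_s_at read 405 and 516 in DU145-DR against 553 and 676 in DU145, and 369.6 against 580.0 on the third pair. It read 391 and 340.1 in 22Rv1-DR against 568 and 505 in 22Rv1, and 484 against 689.8 on the third pair. The groups did not overlap in either line. Over replicates 1 and 2 this held, in either direction, for 40.9% of all tested probe sets in the DU145 comparison. It held for 49.7% in the 22Rv1 comparison. The change was -0.41 ± 0.21 in DU145-DR (95% interval -0.89 to 0.07, limma adjusted p = 0.315) and -0.54 ± 0.21 in 22Rv1-DR (95% interval -1.02 to -0.05, limma adjusted p = 0.269), with -0.63 and -0.50 on the third pair. With the replicate block both passed (limma adjusted p = 0.0193 and 0.0130). The difference between the lines was -0.13 ± 0.30 (95% interval -0.81 to 0.55, limma adjusted p = 0.955). The other 2 ERBB2 probe sets were dim, from 15.7 to 54.2 on all arrays that hold them.

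**Figure D2:**
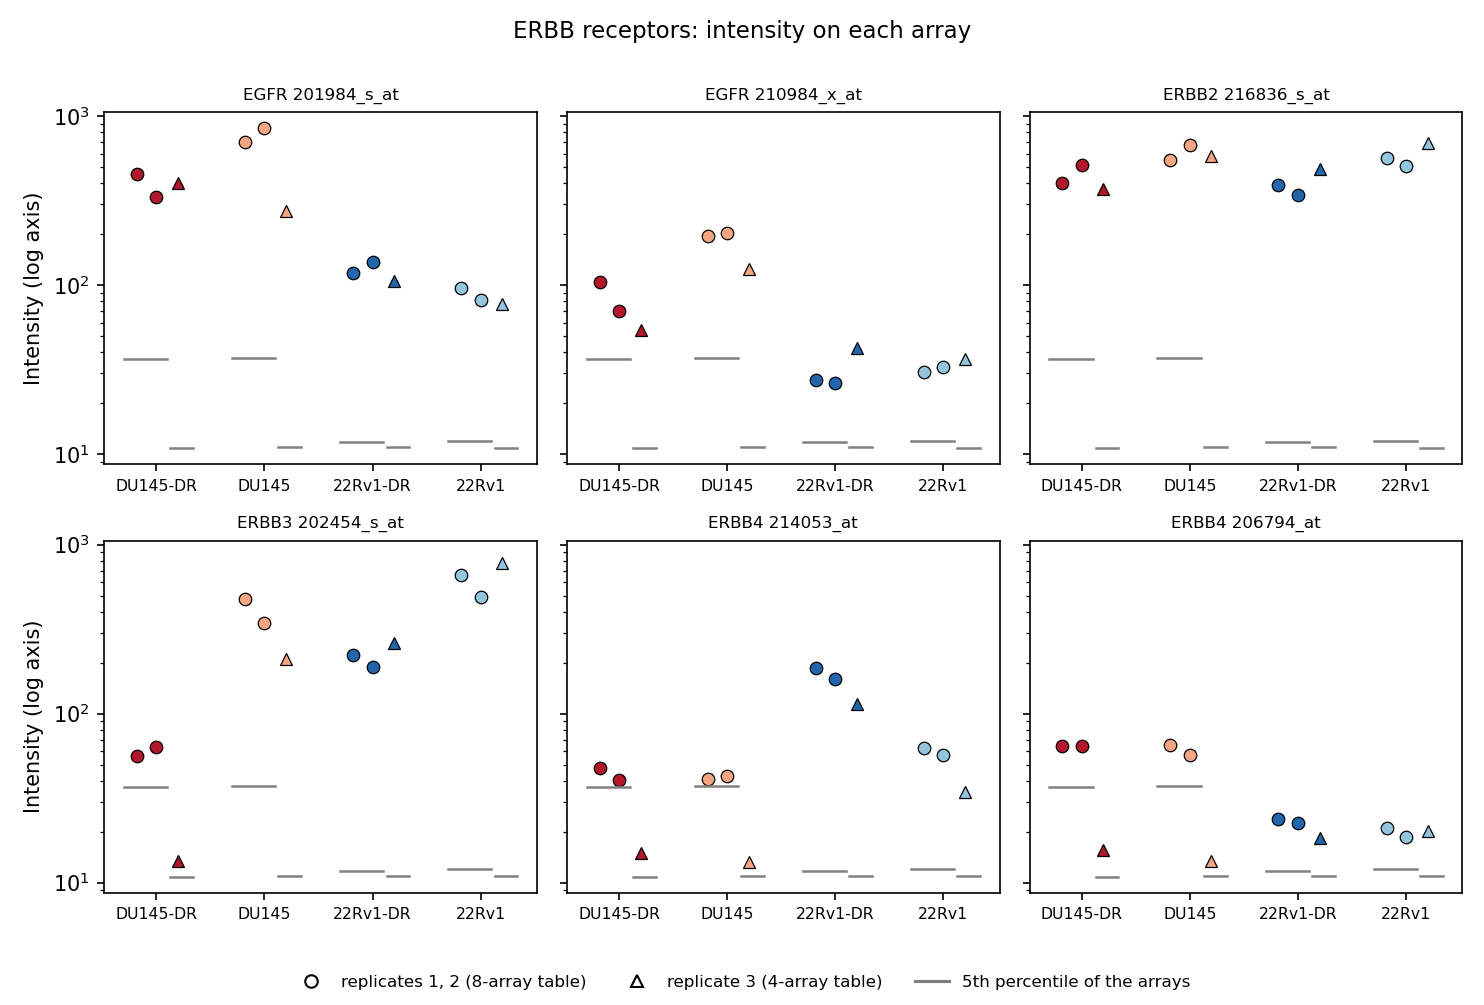
Intensity of EGFR, ERBB2, ERBB3 and ERBB4 probe sets on every array (log axis), with circles for replicates 1 and 2 in the 8-array table, triangles for replicate 3 in the 4-array table, and grey lines at the mean 5th percentile of each group's arrays in each table. ERBB3 is lower in DU145-DR than in DU145 and in 22Rv1-DR than in 22Rv1 on all pairs, and ERBB4 214053_at is higher in 22Rv1-DR than in 22Rv1 and near the grey lines in DU145-DR and DU145.

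EREG, a ligand of EGFR and ERBB4, had the largest change of any member. Its probe set 205767_at read 27.1 and 31.3 in DU145-DR against 2062 and 3104 in DU145, and 10.9 against 653 on the third pair. The resistant values were at or below the 5th percentile of their arrays, at percentiles of 0.196, 1.90 and 4.94, while the parental values were at 89.8, 91.5 and 89.6. On the fitted scale EREG fell by 5.82 ± 0.23 (95% interval -6.33 to -5.30, limma adjusted p = 1.47e-05), with -4.64 on the third pair, and no alternative of 19 ended the call. Its probe set had passed the intensity filter only through its DU145 values, and EREG was called with no filter too. Because the resistant value is a floor, the fall over replicates 1 and 2 is stated as a bound on their means. By these, EREG was at least 69.1-fold lower in DU145-DR. The bound sets the geometric mean of 2530.1 in DU145 against that of the 5th percentiles of the DU145-DR arrays (36.6). It does not hold for each pair. The third-pair DU145-DR value was 0.0166 of the DU145 value and at the 5th percentile of its array. Fewer cells with the transcript and less transcript in each cell cannot be told apart in bulk RNA.

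A second EREG probe set, 1569583_at, on the larger array type only, read 27.5 in DU145-DR against 114 in DU145, a change of -1.58. In 22Rv1-DR and 22Rv1 EREG was near the floor, at percentiles of 7.51 to 14.0 in the 8-array table and below the 5th on the third pair. 205767_at read 12.9 and 12.5 in 22Rv1-DR against 13.4 and 14.8 in 22Rv1, and 9.71 against 10.8 on the third pair. The change was -0.07 ± 0.23 (limma adjusted p = 1.00), and the 22Rv1 change exceeded the DU145 change by 5.75 ± 0.32 (limma adjusted p = 9.04e-05). That difference sets the fall in DU145-DR against values near the floor in both 22Rv1-DR and 22Rv1.

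HBEGF, a ligand of EGFR and ERBB4, rose in DU145-DR by both of its tested probe sets. 203821_at read 695 and 676 in DU145-DR against 254 and 355 in DU145, and 1361 against 263 on the third pair. 38037_at read 609 and 592 in DU145-DR against 211 and 338 in DU145, and 815 against 141 on the third pair. For both probe sets every resistant array was above every parental array of its table. Over replicates 1 and 2, groups did not overlap, in either direction, for 40.9% of all tested probe sets in the DU145 comparison. The changes were 1.15 ± 0.22 (95% interval 0.65 to 1.64, limma adjusted p = 0.0154) and 1.12 ± 0.24 (95% interval 0.58 to 1.67, limma adjusted p = 0.0239), with 2.30 and 2.40 on the third pair. The call of 203821_at was lost without DU145 replicate 1 (limma adjusted p = 0.0843) and that of 38037_at without DU145-DR replicate 1 (0.0540), DU145 replicate 1 (0.106) or either 22Rv1 array (0.0502). Both calls were lost with only the 4 arrays compared (0.103 and 0.135). The remaining HBEGF probe sets were dim. 222076_at read 62.2 and 68.6 in DU145-DR against 74.0 and 61.0 in DU145, and 18.3 against 16.3 on the third pair. 244857_at, on the larger array type only, read 22.3 in DU145-DR against 21.3 in DU145.

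In 22Rv1-DR 203821_at read 95.01 and 78.8 against 82.1 and 68.6 in 22Rv1, and 138 against 137 on the third pair. The groups overlapped and the change was 0.17 ± 0.22 (95% interval -0.33 to 0.67, limma adjusted p = 0.958). The change of 38037_at was 0.29 ± 0.24 (limma adjusted p = 0.772). The changes of the lines differed by -0.98 ± 0.31 for 203821_at, which did not pass the threshold (limma adjusted p = 0.110) and passed it with the replicate block (limma adjusted p = 0.0182). After quantile normalization HBEGF was also called for this difference.

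EREG and HBEGF, which moved in opposite directions in DU145-DR, are printed here by the promoters from which they start, 250 bases before to 50 after the start in RefSeq (GRCh38.p14), because they are the ligands whose levels changed. Of the members, 8 had 10 such windows. Capitals mark matches on either strand to CAGGTG (the E-box), to the AP-1 motif TGANTCA, to TATAAA (known as the TATA box) and to the GC box GGGCGG.
EREG, chr4:74364895-74365194, plus strand: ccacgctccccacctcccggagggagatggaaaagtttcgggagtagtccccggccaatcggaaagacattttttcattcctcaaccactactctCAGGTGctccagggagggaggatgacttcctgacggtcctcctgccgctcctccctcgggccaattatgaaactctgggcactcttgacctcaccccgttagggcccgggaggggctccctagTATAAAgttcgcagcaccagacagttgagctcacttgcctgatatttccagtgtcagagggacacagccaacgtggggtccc
HBEGF, chr5:140346554-140346853, minus strand: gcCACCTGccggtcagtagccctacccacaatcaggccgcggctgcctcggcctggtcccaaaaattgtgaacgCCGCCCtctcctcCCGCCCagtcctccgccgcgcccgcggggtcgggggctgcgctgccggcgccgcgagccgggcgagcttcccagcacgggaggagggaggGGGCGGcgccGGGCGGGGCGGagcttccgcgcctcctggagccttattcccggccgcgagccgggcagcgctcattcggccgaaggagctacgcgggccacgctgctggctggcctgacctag
The EREG window held CAGGTG at -155 and TATAAA at -32, counted to the first base of the match, and no GC box. The HBEGF window held CACCTG, the reverse complement of CAGGTG, at -248, 5 GC boxes, of which 2 overlap by 1 base, and no TATAAA. Neither held TGANTCA. Of 35116 windows of that length in the table, 20.6% held CAGGTG, 11.5% held TATAAA, 45.0% held GGGCGG and 7.71% held TGANTCA. A match is a description of the letters and not a site of binding.

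TGFA, a ligand of EGFR, was well above the floor in DU145 cells and did not pass the threshold in either line. 205016_at read 942 and 1783 in DU145-DR against 904 and 1287 in DU145, and 413 against 231 on the third pair. The groups overlapped, replicate 2 was higher than replicate 1 in both, and the change was 0.26 ± 0.32 (95% interval -0.46 to 0.99, limma adjusted p = 0.783), with 0.80 on the third pair. In 22Rv1-DR it read 19.2 and 24.6 against 50.2 and 38.1 in 22Rv1, and 19.3 against 97.0 on the third pair. Every 22Rv1-DR array was below every 22Rv1 array of its table. Over replicates 1 and 2, groups did not overlap, in either direction, for 49.7% of all tested probe sets in the 22Rv1 comparison. The change was -0.66 ± 0.32 (95% interval -1.39 to 0.06, limma adjusted p = 0.407), with -1.68 on the third pair. This change passed with the replicate block (limma adjusted p = 0.0441). So did the difference between the lines of -0.93 ± 0.45 (limma adjusted p = 0.0352, against 0.318 without the block). However, 205016_at had passed the intensity filter only through its DU145-DR and DU145 values. Its means in 22Rv1-DR and in 22Rv1 were both under the filter, so both results rest on dim 22Rv1-DR and 22Rv1 values. The other 2 probe sets of TGFA had third-pair changes between 0.07 and 0.24 in both lines.

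BTC, a ligand of EGFR and ERBB4, read 58.1 and 119 in DU145-DR against 61.0 and 121 in DU145 by 207326_at, and 11.8 against 14.5 on the third pair. Replicate 2 was higher than replicate 1 by about the same amount in both groups, and the change was -0.04 ± 0.34 (95% interval -0.82 to 0.74, limma adjusted p = 0.994). In 22Rv1-DR it read 26.0 and 21.9 against 23.8 and 21.9 in 22Rv1. The larger array type carries another BTC probe set, 241412_at, which read 18.9 in DU145-DR against 83.3 in DU145 and 208 in 22Rv1-DR against 97.0 in 22Rv1, changes of -1.51 and 0.99. The 2 probe sets of BTC therefore disagree on the third pair, where 207326_at gave -0.13 and -0.04.

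NRG1, the ligand of ERBB3 and ERBB4, was dim by all 6 of its probe sets, of which 3 were tested. They read 36.5 to 83.9 in DU145-DR and 35.3 to 97.7 in DU145, and 10.9 to 32.2 in 22Rv1-DR and 11.2 to 29.0 in 22Rv1, over replicates 1 and 2. The tested changes lay between -0.07 and 0.04 in DU145-DR and between -0.07 and 0.07 in 22Rv1-DR, none past the threshold (limma adjusted p = 0.956 to 0.993 and 1.00 for all 3). Of the further EGF-family ligands EGF, EPGN, NRG2, NRG3 and NRG4, 1 was tested. The change of NRG2 (206879_s_at) was 0.53 in DU145-DR (limma adjusted p = 0.457, and 0.0350 with the replicate block) and -0.10 in 22Rv1-DR (limma adjusted p = 1.00).

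**Figure D3:**
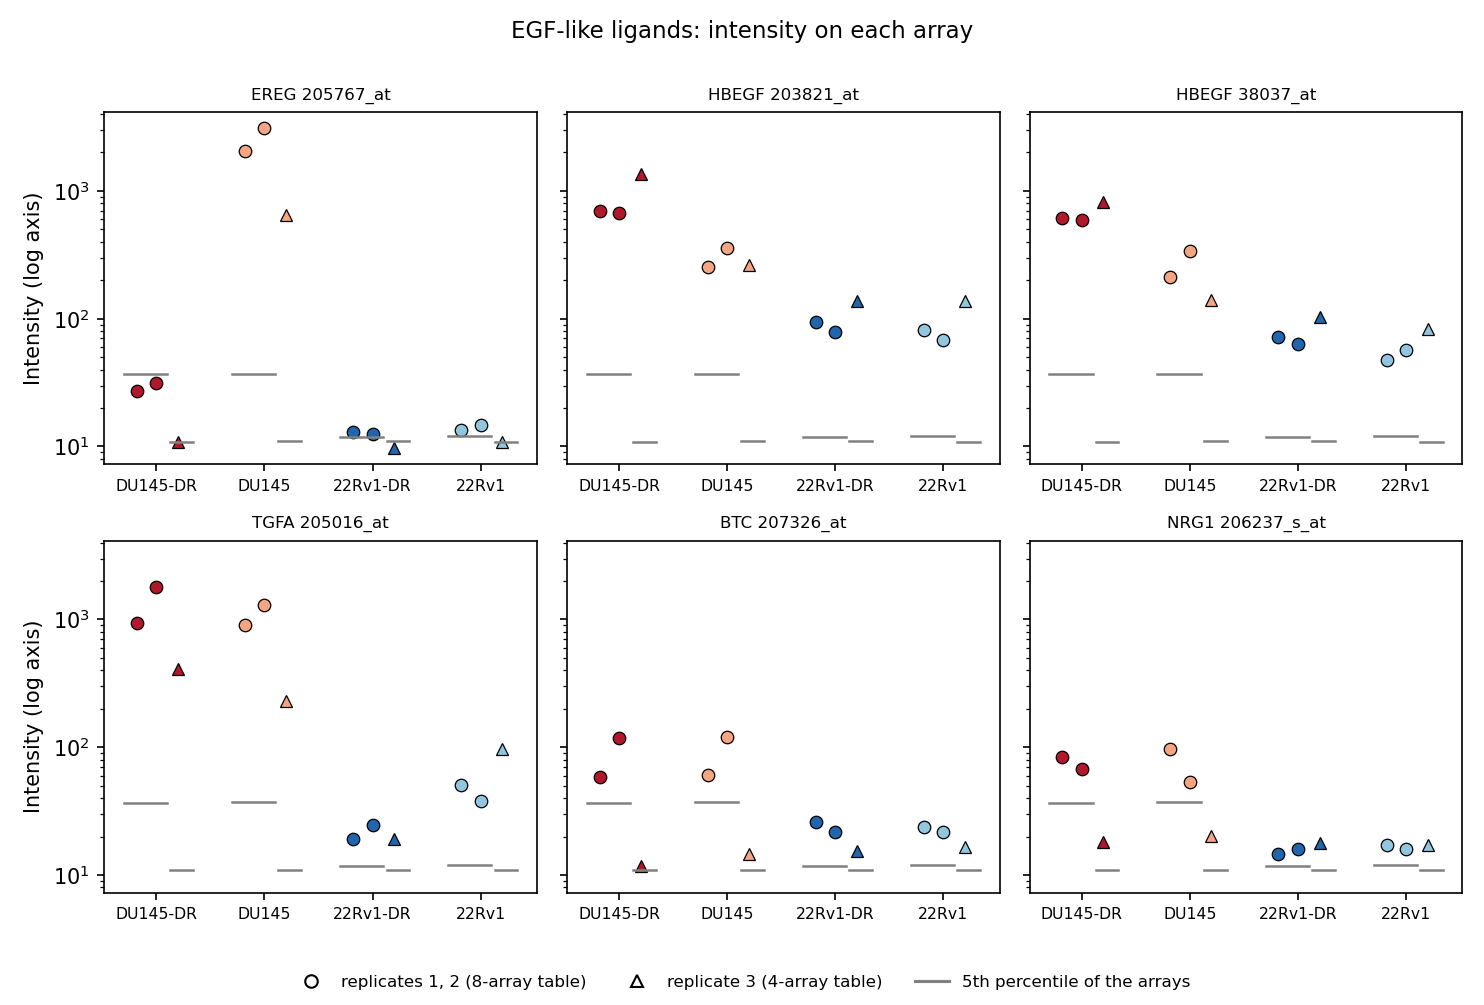
Intensity of EREG, HBEGF, TGFA, BTC and NRG1 probe sets on every array (log axis), with circles for replicates 1 and 2 in the 8-array table, triangles for replicate 3 in the 4-array table, and grey lines at the mean 5th percentile of each group's arrays in each table. EREG is at, below or just above the grey lines in DU145-DR, 22Rv1-DR and 22Rv1 and far above them in DU145. Both HBEGF probe sets shown are higher in DU145-DR than in DU145 on all 3 pairs.

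Set side by side by representative probe set, 1 per gene, HBEGF rose and EGFR, ERBB3 and EREG fell in DU145-DR, which is 4 of 9 genes against 9.99% of all 9699 genes (4.97% higher, 5.02% lower). Of these, the EGFR probe set 201984_s_at had a change of 0.53, the other way, on the third pair. Its call was lost under 9 of 19 alternatives. In 22Rv1-DR ERBB4 rose and ERBB3 fell, which is 2 of 9 genes against 4.83% (2.66% higher, 2.17% lower). With the replicate block the called genes were 5 in DU145-DR, ERBB2 being the addition, against 35.0% of all genes. They were 4 in 22Rv1-DR, ERBB2 and TGFA being the additions, against 21.3%. The TGFA probe set had passed the filter only through its DU145-DR and DU145 values. That of ERBB4 had passed only through 22Rv1-DR, and that of EREG only through DU145. ERBB3 fell in both lines without the block, and ERBB2 and ERBB3 did with it. The changes of the lines differed for EGFR, ERBB4 and EREG, 3 of 18 probe sets against 6.50% of all (3.61% higher, 2.89% lower) or 3 of 9 genes against 7.26% (4.12% higher, 3.13% lower), and for 9 of 18 with the replicate block against 29.0%. On the third pair, among member probe sets above intensity 26.0 on either array, 2 of 22 were higher and 6 lower by at least 1 on the log2 scale in DU145-DR, against 8.75% and 8.08% of all probe sets (16.8% in either direction). In 22Rv1-DR 3 of 20 were higher and 3 lower, against 2.47% and 3.69% (6.16% in either direction).

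**Figure D4:**
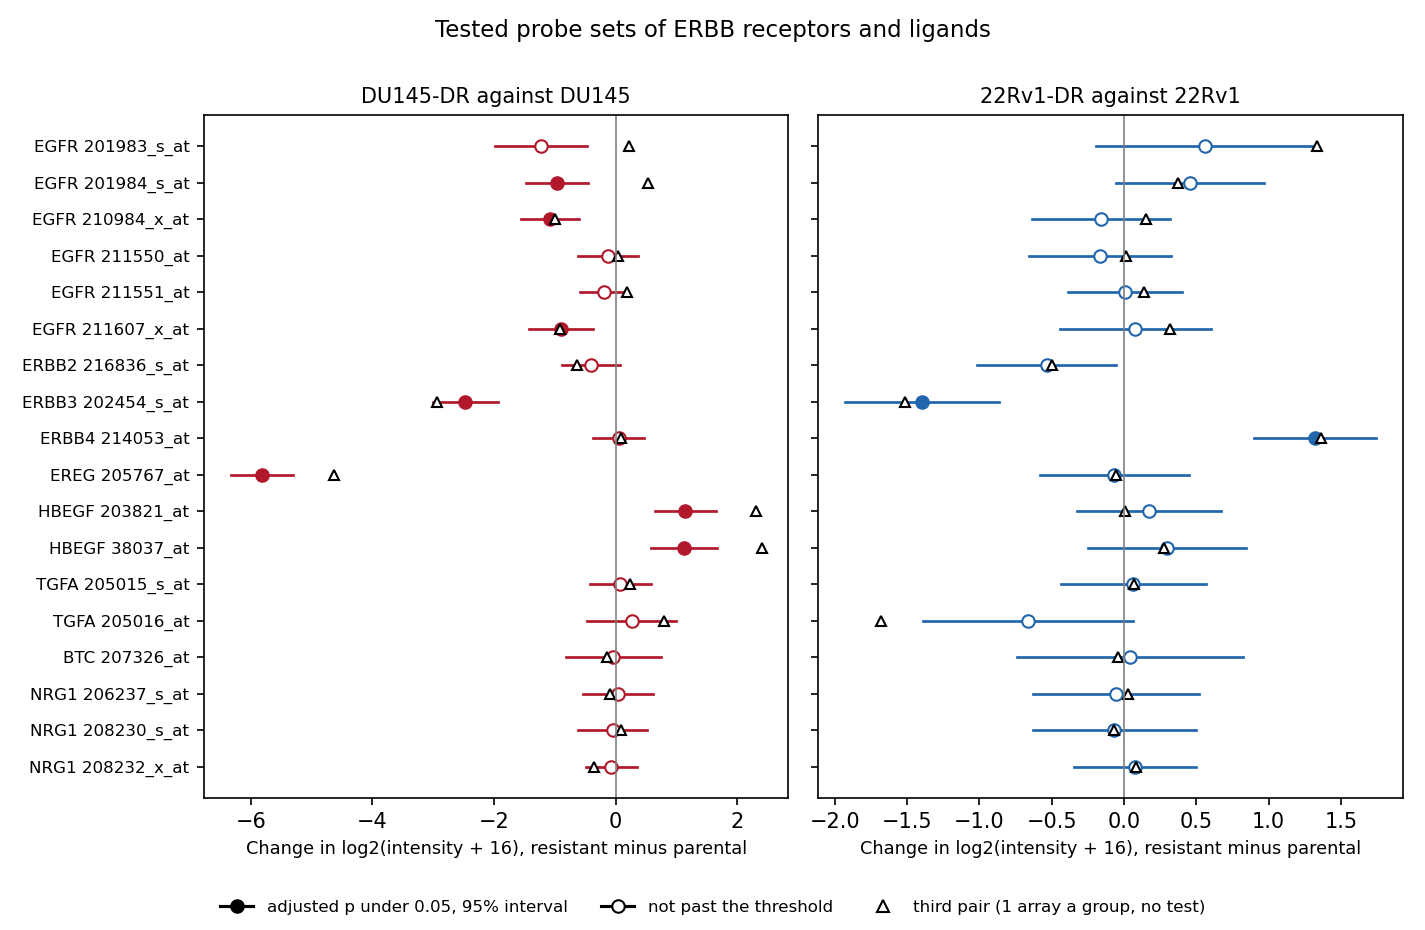
Change of each of the 18 tested member probe sets, resistant minus parental on the scale log2(intensity + 16), with its 95% interval, in DU145-DR against DU145 and in 22Rv1-DR against 22Rv1 (the horizontal scales differ); filled circles passed an adjusted p of 0.05, open circles did not, and triangles are the third pair. EREG at -5.82, ERBB3 at -2.47 and HBEGF at 1.15 and 1.12 stand out in DU145-DR, and ERBB3 at -1.40 and ERBB4 at 1.32 in 22Rv1-DR.

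By place within an array, which of the parental lines held a member higher can be described without a test. EREG lay at percentiles of 8.15, 14.0 and 4.45 in 22Rv1, against 89.8, 91.5 and 89.6 in DU145, and TGFA 205016_at at 46.1, 42.5 and 66.3, against 78.5, 81.0 and 78.1. EGFR 201983_s_at lay at 42.3, 29.2 and 45.6 in 22Rv1, against 84.9, 81.9 and 94.2 in DU145. ERBB3 lay at 85.4, 81.8 and 90.9 in 22Rv1, against 66.6, 59.6 and 76.9 in DU145, and ERBB4 214053_at at 49.4, 49.4 and 47.8, against 6.50, 10.7 and 11.98. EGFR and its ligands EREG and TGFA were thus placed higher in DU145, and ERBB3 and ERBB4 in 22Rv1. ERBB2 lay at 83.5, 82.2 and 89.8 in 22Rv1, against 69.7, 70.9 and 88.5 in DU145. HBEGF 203821_at lay at 53.3, 52.3 and 70.8 in 22Rv1, against 54.5, 60.2 and 79.8 in DU145. On the third pair, where the arrays of the lines had like distributions, it read 137 in 22Rv1 against 263 in DU145.

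The proteases and regulators that release the ligands, 9 genes, had 1 rise and 1 fall in DU145-DR and no call in 22Rv1-DR, against 9.99% and 4.83% of all genes. With the replicate block 2 of the 9 passed in DU145-DR and 6 (4 higher, 2 lower) in 22Rv1-DR, against 35.0% and 21.3% of all genes. The median change was -0.10 in DU145-DR against -0.01 over all genes, and 0.19 in 22Rv1-DR against 0.01. Third-pair medians of this list were -0.21 and 0.06. ADAM19 read 617 and 657 in DU145-DR against 143 and 161 in DU145, rose by 1.96 ± 0.18 (limma adjusted p = 0.000560) and gave 1.13 on the third pair. ADAM8 read 206 and 191 in DU145-DR against 530.1 and 333 in DU145 by 205180_s_at, fell by 1.02 ± 0.24 (limma adjusted p = 0.0336) and gave -2.59 on the third pair, while its other tested probe set had a change of 0.04 that did not pass. ADAM17 and ADAM10, the main known sheddases of these ligands, had changes of -0.12 and 0.13 in DU145-DR (limma adjusted p = 0.943 for both) and of 0.86 and 0.73 in 22Rv1-DR (limma adjusted p = 0.161 and 0.330, with the replicate block 0.0131 and 0.0290). The ADAM19 call held under all 19 alternatives, and the ADAM8 call was lost without any array except DU145 replicate 2 (0.0587 to 0.145).

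Genes of receptor turnover and restraint had 1 rise and 2 falls among 8 tested in DU145-DR and no call in 22Rv1-DR, against 9.99% and 4.83% of all genes. With the replicate block 4 (2 higher, 2 lower) and 0 passed, against 35.0% and 21.3%. The median change was 0.03 in DU145-DR and 0.02 in 22Rv1-DR, with third-pair medians of -0.11 and 0.02. CBLB, a ubiquitin ligase of activated receptors, read 416 and 537 in DU145-DR against 193 and 251 in DU145 and rose by 1.05 ± 0.22 (limma adjusted p = 0.0209; 1.65 on the third pair). Its epithelial relative CBLC read 90.5 and 64.9 in DU145-DR against 365 and 215 in DU145 and fell by 1.68 ± 0.29 (limma adjusted p = 0.0102; -1.44 on the third pair). RNF41, a ubiquitin ligase that acts on ERBB3, read 179.8 and 226 in DU145-DR against 396 and 446 in DU145 and fell by 1.00 ± 0.19 (limma adjusted p = 0.0158; -0.98 on the third pair). Without DU145 replicate 1 the calls of CBLB (0.115), CBLC (0.0633) and RNF41 (0.0539) were lost. That of CBLB was lost also without DU145-DR replicate 2 (0.0513) or a 22Rv1 array, whichever it was (0.0506), and that of RNF41 without DU145 replicate 2 (0.0801).

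Adaptors that link the receptors to RAS had 1 rise and 1 fall among 12 tested in DU145-DR and no call in 22Rv1-DR, against 9.99% and 4.83% of all genes. The replicate block gave 2 (1 higher, 1 lower) and 4 (3 higher, 1 lower), against 35.0% and 21.3%. The median change was 0.14 in DU145-DR and 0.40 in 22Rv1-DR, against -0.01 and 0.01 over all genes. The third pair gave medians of -0.27 and 0.01 for these adaptors. SOS1, an exchange factor for RAS, read 861 and 588 in DU145-DR against 284 and 311 in DU145 by 212780_at and rose by 1.22 ± 0.22 (limma adjusted p = 0.0134; 1.24 on the third pair), while its other tested probe set had a change of 0.06 that did not pass. EPS8, an EGFR substrate, read 530.1 and 437 in DU145-DR against 1067 and 1687 in DU145 and fell by 1.45 ± 0.25 (limma adjusted p = 0.0105; -1.02 on the third pair). The SOS1 call was lost without DU145 replicate 1 (0.0782) or 2 (0.0569), and the EPS8 call without DU145 replicate 2 (0.0544).

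The RAS, RAF, MAP kinase, PI3 kinase, AKT and STAT genes, 14 tested, had no call in DU145-DR and 1 rise in 22Rv1-DR, against 9.99% and 4.83% of all genes. The blocked fit called 3 (2 higher, 1 lower) and 4 (2 higher, 2 lower), against 35.0% and 21.3%. The median change was -0.11 in DU145-DR and 0.06 in 22Rv1-DR, with third-pair medians of -0.02 and 0.06. STAT5A, a transcription factor downstream of ERBB4, read 190.0 and 159.8 in 22Rv1-DR against 54.6 and 62.2 in 22Rv1 and rose by 1.36 ± 0.25 (limma adjusted p = 0.0203; 0.65 on the third pair). Its call was lost without 22Rv1-DR replicate 1 (0.176) or 2 (0.0979) and without 22Rv1 replicate 1 (0.168) or 2 (0.117).

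Genes switched on by MAP kinase output had 1 rise among 10 in DU145-DR and 3 rises and 1 fall in 22Rv1-DR, against 9.99% and 4.83% of all genes. With the replicate block 2 passed in DU145-DR, both higher, and 7 in 22Rv1-DR (5 higher, 2 lower), against 35.0% and 21.3%. The median change was 0.31 in DU145-DR and 0.48 in 22Rv1-DR, against -0.01 and 0.01 over all genes. Third-pair medians of the list were 0.95 and 0.37. DUSP4, a MAP kinase phosphatase, moved in opposite directions in the lines. It read 1269 and 1209 in DU145-DR against 377 and 468 in DU145, and 65.8 and 37.5 in 22Rv1-DR against 168 and 118 in 22Rv1. Its changes of 1.52 ± 0.26 (limma adjusted p = 0.0102) and -1.24 ± 0.26 (limma adjusted p = 0.0361) differed by -2.77 ± 0.37 (limma adjusted p = 0.00415), and its second probe set had the same signs. The ETS factor ETV5 read 377 and 393 in 22Rv1-DR against 125 and 138 in 22Rv1 by 203349_s_at and rose by 1.44 ± 0.19 (limma adjusted p = 0.00335; 1.44 on the third pair). Its other 2 tested probe sets had changes of 0.59 and 0.19 that did not pass. ETV4 rose by 1.04 ± 0.19 (limma adjusted p = 0.0187) and the feedback inhibitor SPRY2 by 0.88 ± 0.20 (limma adjusted p = 0.0477) in 22Rv1-DR. Without 22Rv1 replicate 1 the 22Rv1-DR calls of ETV5 (0.0541), ETV4 (0.136), SPRY2 (0.321) and DUSP4 (0.314) were lost, and without 22Rv1-DR replicate 1 or 2 or 22Rv1 replicate 2 those of ETV4 (0.0979 to 0.201), SPRY2 (0.252 to 0.292) and DUSP4 (0.0518 to 0.274). The DUSP4 call in 22Rv1-DR was lost without either DU145 array too (0.0582), and that in DU145-DR without DU145 replicate 1 (0.0741).

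Other settings ended calls in these lists too. With all 12 arrays and the table as a block, the limma adjusted p was 0.0512 for CBLB, 0.193 for RNF41, 0.0659 for SOS1 and 0.0754 for EPS8 in DU145-DR. In 22Rv1-DR it was 0.410 for STAT5A, 0.122 for ETV4, 0.789 for SPRY2 and 0.180 for DUSP4 in that fit. With only the 4 arrays compared, the DU145-DR calls of ADAM8, CBLB, CBLC, RNF41, SOS1 and EPS8 were lost (0.0695 to 0.169), as was the 22Rv1-DR call of DUSP4 (0.0709). A pseudocount of 64 ended the 22Rv1-DR calls of STAT5A (0.0515), SPRY2 (0.0574) and DUSP4 (0.0672), a shift to 1 median that of SPRY2 (0.0684), and no filter that of DUSP4 (0.0529).

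**Figure D5:**
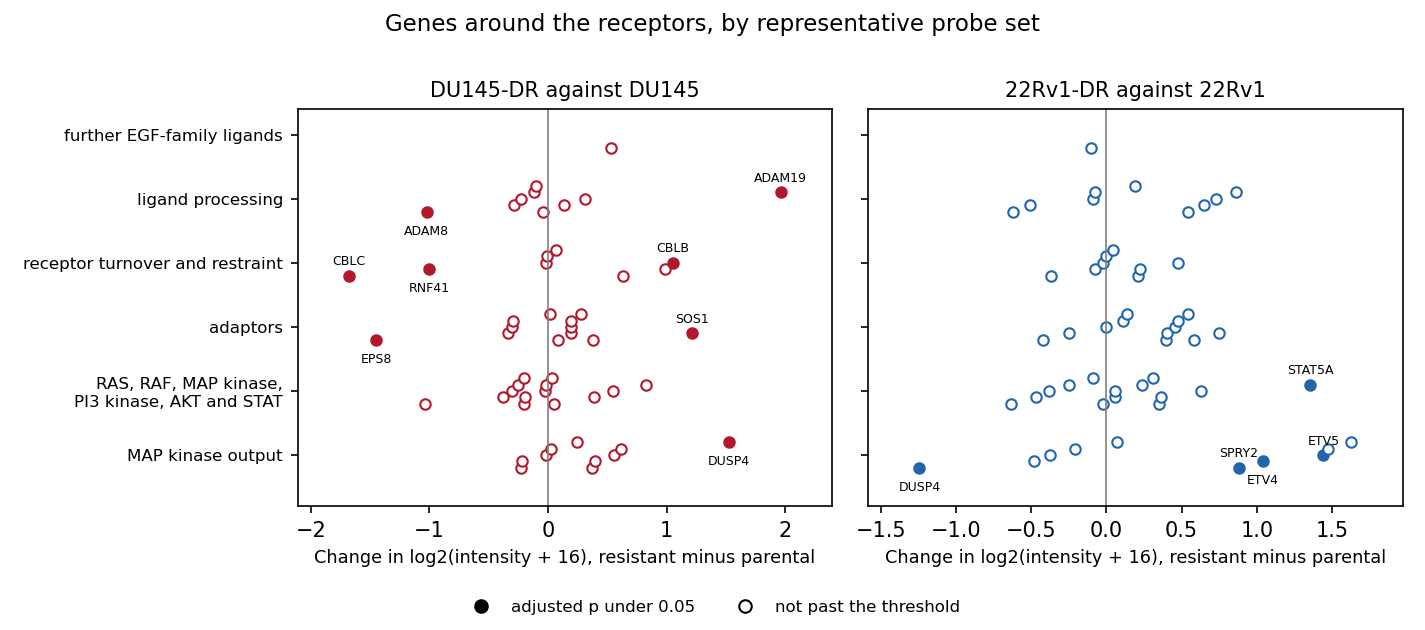
Change of each tested gene of the 6 surrounding lists by its representative probe set, resistant minus parental on the scale log2(intensity + 16), in DU145-DR against DU145 and in 22Rv1-DR against 22Rv1 (the horizontal scales differ); filled and named points passed an adjusted p of 0.05 and open points did not. ADAM19 at 1.96 and CBLC at -1.68 lie farthest out among the called genes in DU145-DR, and DUSP4 is at 1.52 in DU145-DR and at -1.24 in 22Rv1-DR.

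The probe sets whose pattern over the 8 arrays was most like that of EREG belonged to SPINT2, BCHE and RPS6KA2, with root mean square differences of 0.28, 0.35 and 0.52 on the log2 scale after each line was centred on its mean. The DU145-DR changes of SPINT2, BCHE and RPS6KA2 were -5.04, -6.72 and -4.48, and their 22Rv1-DR changes of -0.20, -0.12 and -0.16 did not pass the threshold. Those most like ERBB3 belonged to SYNE2, GPRC5A and C1orf116, at differences of 0.19, 0.26 and 0.27. They fell in both lines, with changes of -2.27, -2.13 and -2.34 in DU145-DR and of -1.33, -1.03 and -1.36 in 22Rv1-DR. The likeness did not use the third pair. There SPINT2, BCHE and RPS6KA2 gave -6.82, -7.44 and -4.62 in DU145-DR, against -4.64 for EREG. SYNE2, GPRC5A and C1orf116 gave -1.82, -1.51 and -4.76 in DU145-DR, against -2.94 for ERBB3, and -2.32, -0.26 and -0.24 in 22Rv1-DR, against -1.51 for ERBB3.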

How the data were processed

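RNA of 12 samples had been measured on Affymetrix arrays of 2 types. The authors deposited linear probe-set intensity values. Per the submitters' processing notes MAS5 and RMA were involved; no source used here gives which did what, in which version, or how background and scale were set. The log2 of 100% of the values has 2 decimals. The number of arrays limits the precision.

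Gene symbols came from the annotation table of each array type; probe sets with several symbols (1043 and 1801) or none (2108 and 11721) and 31 and 63 of Y-linked or X-inactivation genes were left out. All 8 arrays with replicates 1 and 2 were fitted with R 4.3.3 and limma 3.58.1, using lmFit and eBayes without a trend (4 groups, no block, 4 residual and 4.38 prior degrees of freedom) on log2(intensity + 16), over probe sets above the 40th percentile (74.0) in a group mean. The test is two-sided. The procedure was tested on simulated data. A gene's representative is the probe set brightest by mean log2 over the arrays and not named as prone to cross-hybridization. Named are all members, up to 4 called genes per list and line, and the 3 genes most like the member with the largest change in each line. The members and lists were chosen with earlier results of these data known. Alternatives were other scalings, pseudocounts, filters, units and samples, a variance trend and leaving out each array.

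Replicate numbers were checked for pairing: deviations of replicate 1 from its group mean correlated across probe sets at 0.715 between DU145-DR and DU145 and at 0.792 between 22Rv1-DR and 22Rv1, against 0.0791 to 0.111 across lines. They were therefore taken as pairs within a line, and a fit with a term for each line and number (2 residual and 3.36 prior degrees of freedom) gives the values named as with the replicate block.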

Additional observations from a re-analysis of the deposited data

Results flagged for a closer look

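The change between resistant and parental cells differed between the lines for 3 member probe sets, by limma's test of the difference itself (22Rv1 change minus DU145 change). For EREG 205767_at the difference was 5.75 ± 0.32 (limma adjusted p = 9.04e-05), with changes of -0.07 in 22Rv1-DR and -5.82 in DU145-DR and 22Rv1-DR and 22Rv1 values near the floor of the arrays. For EGFR 201984_s_at it was 1.42 ± 0.31 (limma adjusted p = 0.0361), with changes of 0.46 in 22Rv1-DR and -0.96 in DU145-DR, while the third pair gave 0.37 and 0.53. For ERBB4 214053_at it was 1.27 ± 0.26 (limma adjusted p = 0.0261), with changes of 1.32 in 22Rv1-DR and 0.05 in DU145-DR, and the DU145 values lay near the floor. The ERBB4 probe set had passed the filter only through its 22Rv1-DR values, and that of EREG only through its DU145 values. The EREG difference held under its 18 alternatives. Those of EGFR and ERBB4 were each lost under 7, with all 12 arrays and the table as a block (limma adjusted p = 0.757 and 0.292) and without any 1 of the 22Rv1-DR, 22Rv1 or DU145 arrays (0.0623 to 0.164 and 0.0639 to 0.144).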

How the results depend on the processing

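Probe sets called in DU145-DR numbered 1332, and 2027 after quantile normalization, 280 with only the 4 arrays compared, 556 with all 12 arrays and the table as a block, 4916 with the replicate block and 533 to 1811 leaving out 1 array. In 22Rv1-DR they numbered 605, and 913, 1320, 272, 2921 and 245 to 1006 under the same settings. The difference of the changes had 961, and 1526 after quantile normalization, 325 with 12 arrays, 4293 with the replicate block and 337 to 1440 leaving out 1 array. Member genes called in DU145-DR numbered 4, and 2 with only the 4 arrays compared (ERBB3 and EREG) and 2 to 4 leaving out 1 array. In 22Rv1-DR they numbered 2, and 1 with the filter at the 60th percentile (ERBB3), 0 averaging each gene's probe sets (neither ERBB3 nor ERBB4 was called), 1 with 12 arrays (ERBB4), 4 with the replicate block and 0 to 2 leaving out 1 array. For the difference they numbered 3, and 1 averaging each gene's probe sets, 1 with 12 arrays, 6 with the replicate block and 1 to 3 leaving out 1 array. Quantile normalization gave 4 for the difference, HBEGF being the addition. The stricter filter tested 6 member genes and the mean of probe sets 7, against 9. ERBB3 and EGFR were tested under the mean too, since both were called there in DU145-DR. In that setting ERBB3 lost its 22Rv1-DR call and EGFR its call for the difference. The cause of these and the other shifts was not tested. Over 915 recomputed values of member probe sets, 841 kept their side of the threshold, 55 lost a call, 19 gained one and 0 turned a called direction; 39 differed in sign while past the threshold in neither fit. The replicate block ended no call among the members and lists, and changed no other call than those given with it for the members. Values near the 5th percentile of an array limit what can be seen of EREG in 22Rv1 cells and ERBB4 in DU145 cells.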

Other observations

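EREG lies on chromosome 4 in the order CXCL3, CXCL2, MTHFD2L, EPGN, EREG, AREG, BTC, PARM1, RCHY1 in RefSeq, and these neighbours were looked at after the values of EREG were seen. CXCL3, a chemokine, read 776 and 1009.9 in DU145-DR against 288 and 416 in DU145 and rose by 1.31 ± 0.26 (limma adjusted p = 0.0171). MTHFD2L, a mitochondrial folate enzyme, read 290.0 and 317 in DU145-DR against 146 and 193 in DU145 by 220346_at and rose by 0.80 ± 0.20 (limma adjusted p = 0.0454), and 238762_at on the larger array type read 572 against 109. CXCL2 and BTC had changes of -0.10 and -0.04 in DU145-DR that did not pass. BTC 241412_at on the larger array type read 18.9 in DU145-DR against 83.3 in DU145, and 208 in 22Rv1-DR against 97.0 in 22Rv1. PARM1 read 193 and 138 in 22Rv1-DR against 74.0 and 69.1 in 22Rv1, a change of 1.04 that did not pass (limma adjusted p = 0.113), and 225809_at on the larger array type read 1017 against 362.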
